A study of Mus musculus with 2 samples.

Results

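Interleukin-1 family and inflammasome genes were followed through the myeloid cells of the mouse retina. The set was 7 of the 31053 features in both matrices, listed by symbol: Il1b, Il1a, Il1rn, Il18, Nlrp3, Pycard and Casp1. Each symbol had exactly 1 row, and all 7 genes had UMIs (unique molecular identifiers, 1 for each captured transcript) in both libraries. Cells came from digested retinas of C57BL/6j mice at postnatal day 17 and were sorted for F4/80 and CD11b, surface proteins of macrophages, monocytes and microglia. The RA library holds cells of control mice kept in room air, and the OIR library holds cells of mice put through oxygen-induced retinopathy, in which pups breathe high oxygen and then return to room air, after which abnormal vessels grow. There was 1 library of pooled retinas for each condition, so no difference between RA and OIR could be tested and none has a replicate check.

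IL-1β (Il1b) and IL-1α (Il1a) both signal through the IL-1 receptor, and Il1rn encodes the antagonist that occupies the receptor without signalling. IL-1β and IL-18 (Il18) are made as inactive precursors. NLRP3 (Nlrp3) senses cell damage and, through the adaptor ASC (Pycard), assembles the inflammasome that activates caspase-1 (Casp1), the protease that cuts both precursors. Transcript levels of Il1b therefore say nothing of released cytokine, and microglia and monocyte-derived cells are the usual sources of these genes in the retina.

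The promoters of 4 of these genes are shown because the levels below fall into 2 patterns, with Il1b, Il1a and Nlrp3 in the first and Pycard in the second. Each window runs from 250 bases before to 50 bases after a transcription start, is read 5′ to 3′ on the gene's strand, and was taken from RefSeq (build GRCm38.p6, which is mm10, the build in the submitters' processing notes). All 7 genes had a window, and there were 10 in all, since Il1rn has 3 starts and Nlrp3 has 2. The windows are those of Il1b at chr2:129371090-129371389 (minus strand), Il1a at chr2:129309923-129310222 (minus strand), the upstream one of the 2 Nlrp3 starts at chr11:59541319-59541618 (plus strand) and Pycard at chr7:127993818-127994117 (minus strand). Capitals mark matches, on either strand, to a TATA box (TATAAA), an AP-1 motif (TGANTCA), a CRE motif (TGACGTCA) or the NF-kB motif.
Il1b: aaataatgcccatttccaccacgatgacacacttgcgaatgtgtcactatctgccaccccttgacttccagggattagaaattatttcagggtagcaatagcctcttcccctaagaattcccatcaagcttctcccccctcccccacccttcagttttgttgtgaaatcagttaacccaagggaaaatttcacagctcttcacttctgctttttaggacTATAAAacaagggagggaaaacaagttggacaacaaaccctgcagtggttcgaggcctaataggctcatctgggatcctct
Il1a: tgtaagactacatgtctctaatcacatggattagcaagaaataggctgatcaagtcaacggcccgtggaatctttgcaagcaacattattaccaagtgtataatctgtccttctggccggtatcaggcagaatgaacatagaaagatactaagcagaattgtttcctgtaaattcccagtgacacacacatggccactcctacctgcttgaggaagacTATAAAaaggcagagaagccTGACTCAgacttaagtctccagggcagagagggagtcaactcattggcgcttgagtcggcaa
Nlrp3: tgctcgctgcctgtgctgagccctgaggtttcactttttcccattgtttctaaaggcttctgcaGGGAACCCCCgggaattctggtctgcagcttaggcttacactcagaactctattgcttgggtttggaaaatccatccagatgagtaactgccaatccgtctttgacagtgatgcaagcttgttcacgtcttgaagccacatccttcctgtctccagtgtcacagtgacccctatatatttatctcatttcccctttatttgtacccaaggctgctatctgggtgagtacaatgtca
Pycard: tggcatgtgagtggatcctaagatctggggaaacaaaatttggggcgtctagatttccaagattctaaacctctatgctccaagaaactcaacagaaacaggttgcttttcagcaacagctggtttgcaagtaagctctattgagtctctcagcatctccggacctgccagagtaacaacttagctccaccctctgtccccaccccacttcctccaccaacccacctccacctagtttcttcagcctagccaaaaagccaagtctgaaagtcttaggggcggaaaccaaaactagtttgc

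TATAAA began 31 bases before the start of Il1b and 32 bases before that of Il1a, on the gene's own strand. On the other strand, the Il18 window held a match 175 bases before the start, and 1 of the Il1rn windows held a match past the start. TATAAA was found on either strand in 13.6% of 32851 promoter windows of the same length. It began 25 to 35 bases before the start on the same strand in 1.75% of them, a range set after the Il1b and Il1a positions were seen. Il1a also held an AP-1 match 12 bases before its start, and the first of the Il1rn windows held one 141 bases before, against 7.81% of all windows with this motif. The NF-kB match in the Nlrp3 window shown began 186 bases before the start, and 8.46% of windows held one. The other Nlrp3 window held no motif searched. A CRE match, present in 1.79% of windows, was found in none of the 10 windows. No motif searched was in the windows of Pycard and Casp1. These are letter matches only.

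Of 1449 RA and 1259 OIR barcodes, 1295 and 1179 were kept, with medians of 9064 and 5427 UMIs per cell, and no barcode was shared by the libraries. Cells were clustered without the 7 genes and the other genes of the pathway, and classes were named from marker lists. They gave 786 RA and 515 OIR microglia-like cells in 5 clusters, 89 and 142 macrophage-like cells in 2 clusters, 52 and 92 monocyte-like cells and 12 and 107 dividing cells, called microglia, macrophages, monocytes and dividing cells from here. Because the same lists named the classes, the marker values here describe the classes and do not test the labels. All 10 microglial markers were detected in microglia of both libraries. They summed to 16557 CPM (UMIs on a per-million scale, over all UMIs of the class) in RA and 18263 CPM in OIR. In macrophages and monocytes they summed to 3381 to 7169 CPM. All 12 macrophage and all 12 monocyte markers were detected in their own class in each library. Dividing cells held all 12 dividing markers in each library but are named by division, not by lineage. In them the microglial list summed to 10276 CPM in RA and 12524 CPM in OIR, and the macrophage list to 1294 and 1047 CPM. The monocyte list summed to 1684 and 121 CPM and the erythroid list to 6.96 and 1313 CPM, so their make-up differed between the libraries. Cells with photoreceptor genes (307 RA and 234 OIR), which should not make these transcripts, give the background.

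Several features of the libraries moved with condition. The share of microglia without a UMI of Malat1, an abundant nuclear RNA, was 4.83% in RA and 25.4% in OIR. That of macrophages was 8.99% and 27.5% and that of dividing cells 16.7% and 36.4%, while every monocyte held Malat1. Malat1 and Neat1, another nuclear RNA, together were lower in OIR in every class. They summed to 19726 CPM in RA and 8131 CPM in OIR microglia, 20401 and 7537 CPM in macrophages and 19675 and 9370 CPM in monocytes. Dividing cells held 12746 and 5433 CPM, and photoreceptor-gene cells 50181 and 27992 CPM. Cells of clusters 3 and 9, which held little Malat1 and few UMIs, made up 8.91% of RA and 25.6% of OIR microglia (cluster 3) and 15.7% of RA and 31.7% of OIR macrophages (cluster 9). Immediate-early genes, the first to be transcribed after a stimulus, summed to 35721 CPM in RA and 28171 CPM in OIR microglia, and to 37201 and 25823 CPM in macrophages. In monocytes they summed to 17016 and 17230 CPM, and in dividing cells to 22612 and 19892 CPM. A list of disease-associated microglial genes, among them Spp1, Cst7 and Lgals3, summed to 2865 CPM in RA and 6270 CPM in OIR microglia. It summed to 2596 and 4788 CPM in macrophages, 1936 and 7366 CPM in monocytes and 2706 and 4047 CPM in dividing cells. The part of these differences in the values below was not tested. Some values are also given without clusters 3 and 9, which leaves monocytes and dividing cells unchanged.

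Levels are summed UMIs of a class in CPM with an exact Poisson 95% interval, and shares of cells have an exact binomial interval. Ratios have the exact interval of 2 counts, except that the comparison of Il1rn per Il1b has an approximate (delta-method) interval. These intervals cover counting error only, not the spread between mice, litters or preparations. Those of levels and ratios treat UMIs as independent, so they also leave out the spread between cells. Without the highest cell, Il1b in RA dividing cells was 1045 CPM, outside its interval of 2325 to 2858 CPM. In RA microglia it was 1392 CPM, within 1386 to 1439 CPM. Where intervals of levels or ratios are said to overlap, to be apart or to exclude equality, only counting error is meant. Levels are compared between classes and conditions, not between genes, and Il1rn per Il1b is compared between conditions.

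Il1b was abundant in every myeloid class. In RA its level was 3192 CPM in macrophages (3091 to 3296), 2721 CPM in monocytes (2594 to 2852), 2581 CPM in the 12 dividing cells (2325 to 2858) and 1412 CPM in microglia (1386 to 1439). Microglia were thus lowest, and the intervals of monocytes and dividing cells overlapped. The place of dividing cells rested on 1 cell, which held 251 of their 371 UMIs. Without the highest cell of each class, RA dividing cells held 1045 CPM and RA microglia 1392 CPM, so the order of these 2 classes turned. In OIR the level was 3991 CPM in monocytes (3862 to 4123), 2515 CPM in macrophages (2437 to 2595), 2254 CPM in microglia (2208 to 2301) and 2206 CPM in dividing cells (2121 to 2294). Monocytes were now highest, and microglia and dividing cells overlapped. The photoreceptor-gene cells held 6.36 CPM in RA (7 UMIs) and 43.2 CPM in OIR, where 24 of the 29 UMIs came from 1 cell.

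**Figure D1:**
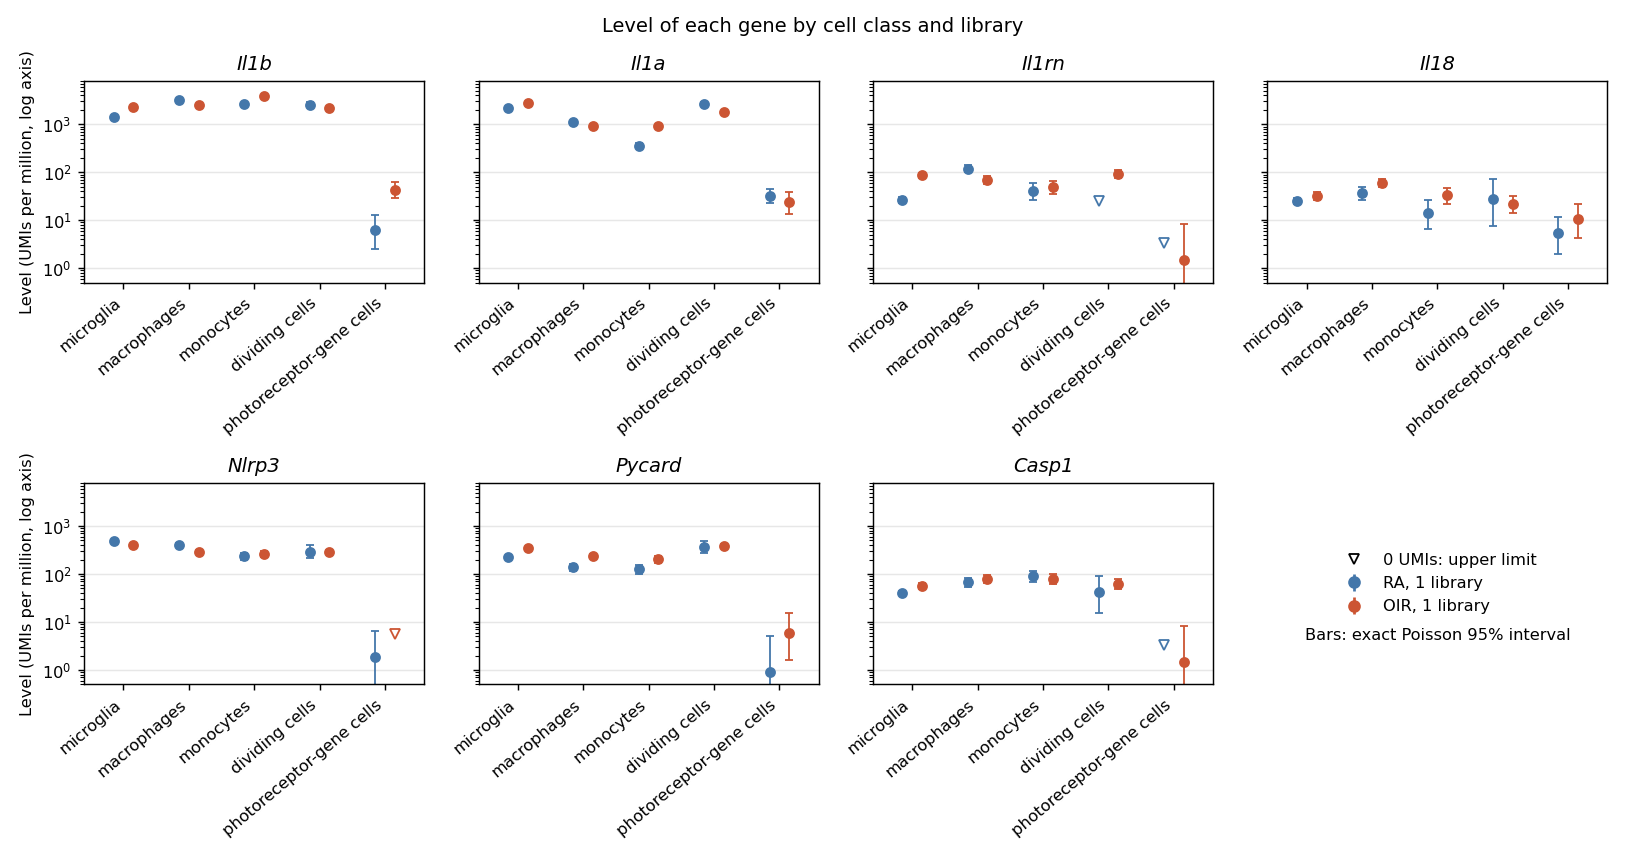
Level of each of the 7 genes (CPM, log axis) in each cell class of the RA and OIR libraries, with photoreceptor-gene cells as background. Points are summed levels of 1 library, bars are exact Poisson 95% intervals and open triangles are upper limits where no UMI was counted. Il1b lies between 1412 and 3991 CPM in the myeloid classes and at 6.36 and 43.2 CPM in photoreceptor-gene cells.

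In microglia Il1b was 1.60-fold higher in OIR than in RA, a log2 ratio of 0.67 (0.63 to 0.71). Without cluster 3 the log2 ratio was 0.75. It was above 0 in each of the 5 microglial clusters. It was 0.41 (0.36 to 0.47) in cluster 0, whose leading genes include Egr3 and Tnf, and 0.71 (0.60 to 0.83) in cluster 1, led by the stress genes Rrad and Ddit3. In cluster 2, led by Arhgap5 and Bhlhe41 and with P2ry12, Tmem119 and Sall1 among its leading genes, it was 1.39 (1.28 to 1.49). It was 0.72 (0.59 to 0.85) in cluster 7, whose leading genes include Csf1 and Lpl, and 4.64 (3.25 to 6.53) in cluster 3, where RA held only 4 UMIs. Cluster 3 aside, the ratio was thus largest in cluster 2. The list of microglial markers summed to 17718, 16959 and 17982 CPM in clusters 0, 1 and 2, so these markers do not set cluster 2 apart. In monocytes the log2 ratio was 0.55 (0.47 to 0.64). In macrophages it had the other sign, at -0.34 (-0.41 to -0.28), and it was -0.30 in macrophages without cluster 9.

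In dividing cells the log2 ratio of Il1b was -0.23 (-0.38 to -0.07), but 251 of the 371 RA UMIs were in 1 cell. With the highest cell of each library left out, it was 0.98 (0.71 to 1.25), so no direction can be read for this class. A different RA dividing cell held all 817 S100a8 and 406 S100a9 UMIs of the class, neutrophil genes, with 13 Il1b UMIs, and Ly6g, Retnlg, Cxcr2, Ngp, Camp and Ltf were at 0 in the class. Without it the RA level of Il1b was 3011 CPM.

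More than 4 in 10 microglia carried an Il1b UMI at equal depth. When each cell was thinned to 2000 UMIs, leaving out 25 RA and 56 OIR microglia with fewer, the RA share was 44.8% (41.2 to 48.4), from 761 cells, and the OIR share was 52.7% (48.0 to 57.4), from 459. The unthinned shares were 54.2% and 55.5%, at median depths of 10239 and 7280 UMIs. Of the microglia left out, 24 in RA and 53 in OIR were of cluster 3, which held 70 and 132 cells. Among the deeper cells of cluster 3, 2.17% in RA and 20.3% in OIR carried Il1b. The microglia at equal depth were thus trimmed differently in the 2 libraries, here and for the other genes, and the part of this in the shares was not tested. At equal depth 65.9% of RA and 68.3% of OIR macrophages, 76.5% and 86.2% of monocytes carried one, as did 4 of 10 RA dividing cells and 56.3% of those in OIR. Among photoreceptor-gene cells it was 2.24% of 134 RA and 1.27% of 79 OIR cells. The other 173 RA and 155 OIR cells of this group had fewer than 2000 UMIs and were left out. Over all 307 RA and 234 OIR photoreceptor-gene cells the unthinned median depths were 1808 and 1272 UMIs. Macrophages carried Il1b at a similar share in RA and OIR while their CPM was lower in OIR, so no order is read from that share. Of the macrophages left out, 3 of 4 in RA and all 19 in OIR were of cluster 9.

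Il1b was unevenly spread over cells. The 10% of microglia with the most held 52.0% of the RA and 50.9% of the OIR Il1b UMIs, and the median microglial cell held 1. At equal depth, 20.5% of RA and 29.0% of OIR microglia had 5 to 19 Il1b UMIs, and 1.18% and 3.05% had 20 to 49. In monocytes 35.3% of RA and 50.6% of OIR cells had 5 to 19, and in macrophages 34.1% and 27.6%. The share of cells with 5 to 19 UMIs and the summed level come from the same counts, so their common direction in these 3 classes is no separate support. In macrophages the share with 1 to 4 UMIs was 22.4% in RA and 35.8% in OIR.

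**Figure D2:**
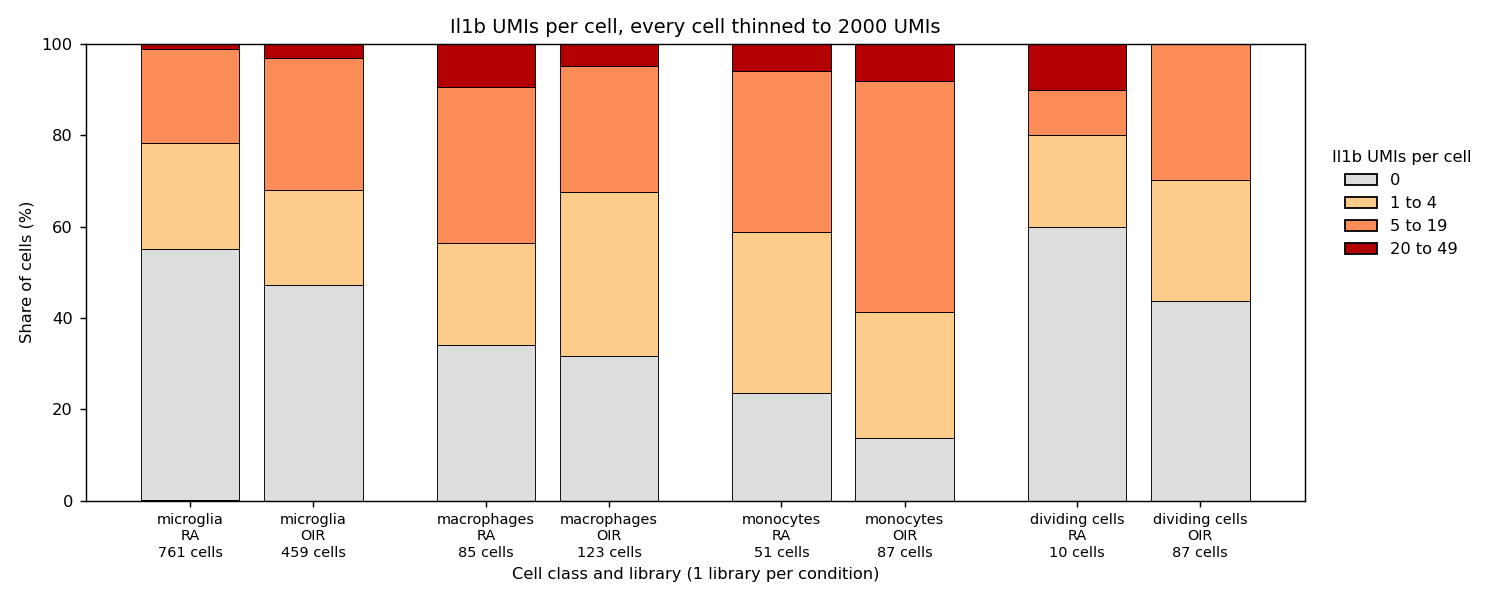
Share of cells (%) by number of Il1b UMIs per cell after every cell was thinned to 2000 UMIs, for each class and library. Grey is 0 UMIs and warmer colours are more, and 47.3% of OIR against 55.2% of RA microglia were at 0.

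Il1a had a different order of classes. In RA its level was 2699 CPM in dividing cells (2438 to 2982), 2175 CPM in microglia (2143 to 2208), 1128 CPM in macrophages (1069 to 1191) and 362 CPM in monocytes (316 to 412), with no overlap of neighbours. The first place of dividing cells rested on 6 of 12 cells, and at equal depth the mean was 3.80 Il1a UMIs per cell in dividing cells and 4.14 in microglia. In OIR it was 2800 CPM in microglia (2748 to 2852), 1847 CPM in dividing cells (1769 to 1927), 940 CPM in macrophages (892 to 989) and 924 CPM in monocytes (862 to 988), the last 2 overlapping. Relative to microglia of the same library, monocytes were lower by a log2 ratio of -2.59 (-2.78 to -2.40) in RA and -1.60 (-1.70 to -1.5) in OIR. For Il1b the same ratios were 0.95 (0.87 to 1.02) and 0.82 (0.77 to 0.88). Monocytes were thus above microglia for IL-1β transcripts and below them for IL-1α transcripts in each library.

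Between conditions, Il1a had a log2 ratio of OIR over RA of 0.36 (0.33 to 0.40) in microglia and 0.44 without cluster 3. It was 1.35 (1.14 to 1.57), or 2.55-fold, in monocytes, -0.26 (-0.37 to -0.16) in macrophages and -0.55 (-0.70 to -0.39) in dividing cells. In the microglial clusters it ran from -0.08 (-0.19 to 0.03) in cluster 7 to 1.97 (1.43 to 2.55) in cluster 3. At equal depth 81.7% of RA and 82.6% of OIR microglia carried Il1a, against 1.49% and 2.53% of photoreceptor-gene cells. The share of monocytes was 17.6% (8.40 to 30.9) in RA and 36.8% (26.7 to 47.8) in OIR.

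The monocyte ratio of Il1a rested on few RA cells. Only 16 of 52 RA monocytes held a UMI, and the 10% of cells with the most held 74.7% of the 229 UMIs. The log2 ratio was 1.52 without the highest cell of each library, 0.85 with a higher clustering resolution and 0.31 when the cells with the most genes were not removed. The monocytes of the libraries also differed in other markers. The microglial list summed to 3381 CPM in RA and 6017 CPM in OIR, with 10 of 10 markers detected in each. The monocyte list, with 12 of 12 detected, summed to 6023 and 3745 CPM. The neutrophil list summed to 1887 and 438 CPM with 5 and 7 of 9 genes detected, and with Ngp and Camp at 0 in both. Their part in the ratio was not tested.

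Il1rn, the antagonist, was the only member more than 2-fold apart in microglia. Its level was 26.8 CPM in RA (23.3 to 30.6) and 86.8 CPM in OIR (77.9 to 96.5), 3.25-fold higher, a log2 ratio of 1.70 (1.45 to 1.95). It was 1.78 without cluster 3 and 1.64 without the highest cell of each library. The log2 ratio was 1.02 (0.67 to 1.37) in cluster 0, 2.86 (2.20 to 3.55) in cluster 1, 1.47 (0.63 to 2.33) in cluster 2 and 2.0 (1.23 to 2.85) in cluster 7. Cluster 3 held 0 UMIs in RA and 4 in OIR. OIR was thus higher in each of the 4 clusters that had counts in both libraries.

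Few microglia carried Il1rn. At equal depth 2.89% (1.82 to 4.34) of RA and 9.37% (6.86 to 12.4) of OIR microglia carried it, and unthinned 8.65% and 16.1%. No photoreceptor-gene cell carried it at equal depth, which in 134 RA and 79 OIR cells allows shares of up to 2.72% and 4.56% (the upper ends of the exact intervals). When per-cell values were averaged, so that each cell counts alike, the log2 ratio was 1.23, and after thinning 1.36.

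In the other classes Il1rn depended more on single cells. Macrophages held 120 CPM in RA (101 to 141) and 70.0 CPM in OIR (57.4 to 84.4), a log2 ratio of -0.78 (-1.15 to -0.41). The log2 ratio was -1.30 when averaged over cells and -1.78 from thinned counts. The highest RA cell held 44 of 142 UMIs, and without the highest cell of each library the log2 ratio was -0.49 (-0.91 to -0.06). Macrophages with a UMI were 19.1% in RA and 25.4% in OIR unthinned, and 9.41% (4.15 to 17.7) and 4.88% (1.81 to 10.3) at equal depth, with overlapping intervals. Monocytes held 41.1 CPM in RA and 48.5 CPM in OIR, with 23 of the 26 RA UMIs in 1 cell. The 12 RA dividing cells held none, and the OIR dividing cells held 94.4 CPM (77.4 to 114). With 3 UMIs taken for RA, the log2 ratio of OIR over RA was 2.18, and the interval of the counts began at 1.85. Of the 108 OIR UMIs 43 were in 1 cell, and without it the ratio was 1.47.

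Set against Il1b, the antagonist was higher in OIR than in RA microglia. There were 1.89 Il1rn UMIs per 100 Il1b UMIs in RA and 3.85 in OIR, a log2 ratio of 1.02 (0.77 to 1.27). Total depth does not enter this ratio. Averaged over cells it was 0.63 and from thinned counts 0.70, so the size depends on how cells are weighted. In macrophages the ratio was 3.76 per 100 in RA and 2.78 in OIR, a log2 ratio of -0.43 (-0.80 to -0.07). In monocytes it was 1.51 and 1.22, with an interval from -1.02 to 0.39 around -0.31. Since 23 of the 26 Il1rn UMIs of RA monocytes were in 1 cell, no direction is read there.

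Il18 was low in every class. Its level was highest in macrophages, at 37.2 CPM in RA (27.0 to 49.9) and 60.3 CPM in OIR (48.8 to 73.8), and was 25 CPM (21.7 to 28.7) and 32.2 CPM (26.9 to 38.3) in microglia. Monocytes held 14.2 and 33.1 CPM, and dividing cells 27.8 and 21.9 CPM, from 4 to 30 UMIs. The log2 ratio of OIR over RA was 0.37 (0.03 to 0.69) in microglia and 0.70 (0.17 to 1.25) in macrophages. From these few UMIs it was 1.22 (0.11 to 2.48) in monocytes and -0.35 (-1.88 to 1.63) in dividing cells. At equal depth the share of macrophages with Il18 had the other order, 8.24% (3.38 to 16.2) in RA and 6.50% (2.85 to 12.4) in OIR, with overlapping intervals, so no direction is read for them. Photoreceptor-gene cells held 5.45 and 10.4 CPM. At equal depth the shares were 5.12% of RA and 6.97% of OIR microglia against 2.24% and 3.80% of photoreceptor-gene cells, with overlapping intervals. Il18 was thus not set apart from background by its share of cells at this depth, and only its summed levels are compared.

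Nlrp3, the sensor, was highest in microglia. In RA its level was 488 CPM in microglia (473 to 503), 400 CPM in macrophages (365 to 437), 292 CPM in dividing cells (211 to 395) and 234 CPM in monocytes (198 to 275), the neighbours overlapping except for microglia. In OIR it was 401 CPM in microglia (382 to 421), and 284, 288 and 262 CPM in macrophages, dividing cells and monocytes, which overlapped. The log2 ratio of OIR over RA was -0.28 (-0.37 to -0.20) in microglia and -0.49 (-0.69 to -0.30) in macrophages. Without clusters 3 and 9 it was -0.19 and -0.45. Within the microglial clusters other than 3 it lay between -0.21 and -0.03, with the interval off 0 only in cluster 1, at -0.21 (-0.36 to -0.07). The difference was thus smaller within clusters than over all microglia. At equal depth 50.2% (46.6 to 53.8) of RA and 46.2% (41.6 to 50.9) of OIR microglia carried Nlrp3, and no photoreceptor-gene cell did. In monocytes the log2 ratio was 0.16 (-0.14 to 0.47) and turned to -0.96 after thinning.

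Pycard, the adaptor, was higher in OIR in 3 of the 4 classes. In microglia it held 223 CPM in RA (213 to 234) and 346 CPM in OIR (328 to 365), a log2 ratio of 0.63 (0.53 to 0.73). In macrophages it held 138 and 241 CPM, a log2 ratio of 0.81 (0.54 to 1.08), and in monocytes 126 and 201 CPM, a log2 ratio of 0.67 (0.28 to 1.07). In dividing cells it held 369 and 379 CPM, a log2 ratio of 0.04 (-0.37 to 0.48). The microglial ratio was 0.53 to 0.88 in each of the 5 clusters, with each interval above 0. It was 0.59 without cluster 3. At equal depth 35.9% (32.5 to 39.4) of RA and 48.1% (43.5 to 52.8) of OIR microglia carried Pycard, against 0 of 134 RA and 1.27% of 79 OIR photoreceptor-gene cells. Macrophages moved from 24.7% to 39.8% and monocytes from 11.8% to 34.5%.

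Casp1, the protease, had a ratio between conditions with an interval off 0 only in microglia. Microglia also held the most Casp1 UMIs, 325 in RA and 226 in OIR, and had the narrowest interval. Microglia held 40.6 CPM in RA (36.3 to 45.3) and 56.9 CPM in OIR (49.7 to 64.8), a log2 ratio of 0.49 (0.23 to 0.73). Within the microglial clusters the interval was off 0 only in cluster 1, at 0.70 (0.24 to 1.15), and the lowest ratio was 0.01 (-0.82 to 0.88) in cluster 7. The intervals of the ratio included 0 in macrophages, at 0.24 (-0.18 to 0.66), in monocytes, at -0.20 (-0.72 to 0.33), and in dividing cells, at 0.59 (-0.60 to 2.09). Casp1 was highest in RA monocytes, at 90.1 CPM (68.2 to 117), which overlapped macrophages at 67.6 CPM (53.6 to 84.2). Monocytes exceeded microglia of their library by a log2 ratio of 1.15 (0.72 to 1.56) in RA and 0.46 (0.06 to 0.85) in OIR. At equal depth 8.67% (6.77 to 10.9) of RA and 11.3% (8.58 to 14.6) of OIR microglia carried it, with overlapping intervals, and no photoreceptor-gene cell did.

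**Figure D3:**
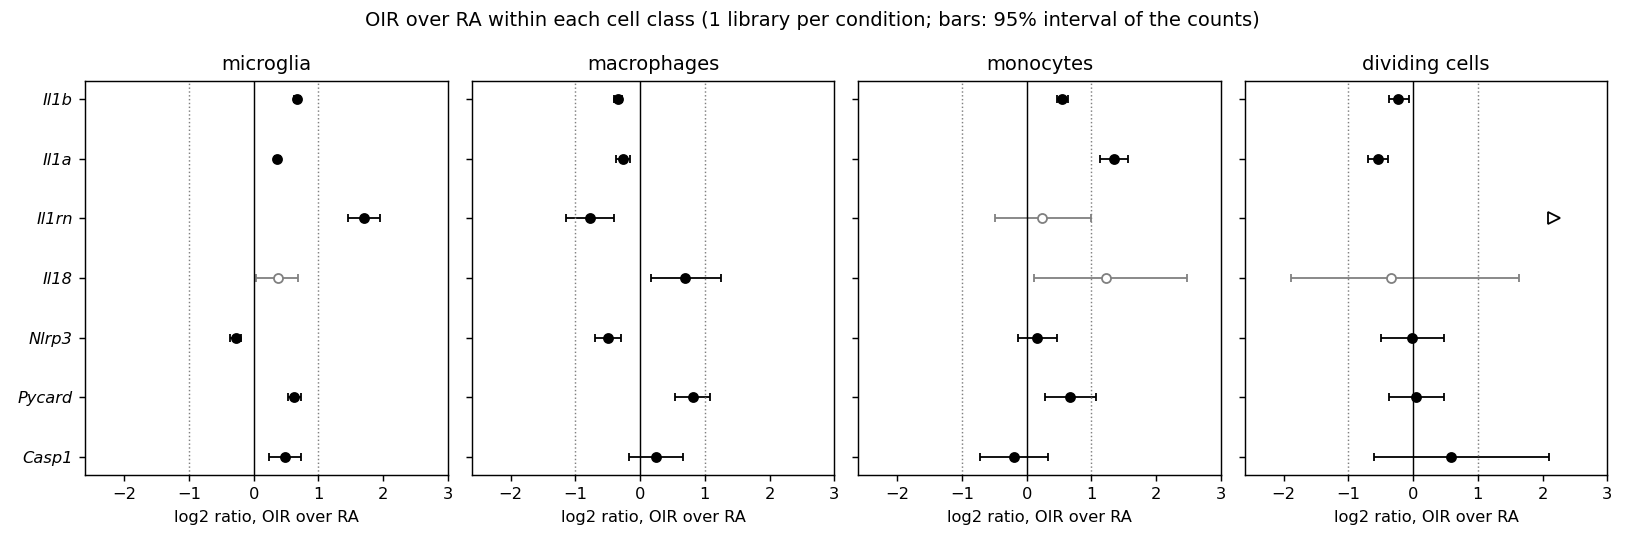
Log2 ratio of OIR over RA for each gene in microglia, macrophages, monocytes and dividing cells, with the 95% interval of the counts as bars and dotted lines at a 2-fold difference. Open circles mark genes under 50 CPM in both libraries and the open triangle marks a ratio with 3 UMIs taken for RA, which had none. Il1rn in microglia (1.70) and Il1a in monocytes (1.35) lie past the dotted line. Il18 in monocytes (1.22), an open circle, also lies past it.

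Counted at 2-fold, with 50 CPM or more in at least 1 library, few members passed. In microglia 1 of 6 members compared was higher in OIR (Il1rn), beside 5.20% of 3135 genes, and 0 were lower, beside 6.16%. In macrophages 0 of 7 were higher, beside 8.09% of 3362 genes, and 0 lower, beside 6.54%. In monocytes 1 of 5 was higher (Il1a), beside 6.55% of 3586 genes, and 0 lower, beside 7.61%. In dividing cells 1 of 6 was higher (Il1rn, with 3 UMIs taken for RA), beside 11.4% of 3689 genes, and 0 lower, beside 11.9%. The median log2 ratio of the members compared was 0.56 in microglia, -0.26 in macrophages, 0.55 in monocytes and 0.01 in dividing cells, beside 0.05, 0.15, 0.09 and 0.05 for all genes compared. With 5 to 7 members compared, a count of 0 or 1 is too small to be read against these shares.

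The members fell into 2 patterns over clusters with little Malat1. Cluster 3 (microglia, 70 RA and 132 OIR cells, median 2650 UMIs), cluster 9 (macrophages, 14 and 45 cells, 2276 UMIs) and cluster 8 (unnamed, led by Gclm and Prdx1, 6 and 61 cells, 2458 UMIs) held 1183, 123 and 22.9 CPM of Malat1, against 10100 to 18810 CPM in the other 4 microglial clusters. Cluster 3 was led by Cryba4, Crybb1, Fabp5 and Cst7, and its leading genes also included the glycolytic genes Pgam1, Gapdh, Pkm and Tpi1. The leading genes of cluster 8 also included Fabp5, Hmox1 and Lgals3. In cluster 3 Il1b was at 14.9 CPM in RA and 371 CPM in OIR, against 1461 and 2456 CPM in the other microglia, log2 ratios of -6.61 (-8.49 to -5.25) and -2.73 (-2.97 to -2.49). Il1a was lower there by -4.19 and -2.66, and Nlrp3 by -5.08 and -3.71. Il1rn had 0 UMIs there in RA and 4 in OIR, where its log2 ratio to the other microglia was -3.19 (-5.08 to -1.82). Pycard was instead higher, by 0.46 (0.12 to 0.78) in RA and 0.54 (0.31 to 0.77) in OIR. Casp1, at 0.38 (-0.51 to 1.15) and 0.40 (-0.23 to 0.97), and Il18, at 0.75 (-0.28 to 1.62) and 0.95 (0.22 to 1.62), had intervals that included 0 or lay above it.

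Cluster 9 had the same split, and cluster 8 had it in part. Cluster 9 had 0 Il1b UMIs in RA and 246 CPM in OIR, against 3307 and 2693 CPM in the other macrophage cluster, and its OIR log2 ratios were -3.45 for Il1b, -3.14 for Il1a and -2.78 for Nlrp3. Pycard, Casp1 and Il18 were at 0.75 (0.26 to 1.21), 0.57 (-0.38 to 1.41) and 1.03 (0.06 to 1.88). Its OIR cells had 0 Il1rn UMIs, against 75.5 CPM in the other macrophage cluster. Of the 61 OIR cells of cluster 8, which was not named as microglia, 2 held an Il1b UMI, 3.28% (0.40 to 11.3), while 55 Pycard UMIs gave 237 CPM. Set against the OIR microglia outside cluster 3, this was a log2 ratio of -0.48 (-0.90 to -0.09), against -7.15 for Il1b and -5.68 for Nlrp3. Immediate-early genes summed to 5903, 2664 and 4930 CPM in clusters 3, 8 and 9, against 25747 to 45642 CPM in the other microglial clusters and 32276 CPM in the other macrophage cluster. The disease-associated list summed to 6241, 15814 and 3785 CPM in clusters 3, 8 and 9. It summed to 3356 to 7433 CPM in the other microglial clusters, highest in cluster 7, and to 3845 CPM in the other macrophage cluster. Without thinning, Ptprc, the CD45 gene, was found in 24.3%, 17.9% and 15.3% of the cells of clusters 3, 8 and 9. It was found in 89.0% to 94.2% of cells in the other microglial clusters and 94.8% in the other macrophage cluster, all of which were deeper. Cluster 10 (unnamed, 27 RA and 12 OIR cells) was also shallow, with a median of 2437 UMIs, but held 34971 CPM of Malat1 and had Ptprc in 66.7% of its cells. In RA and OIR it had Il1b at 1151 and 2177 CPM, Nlrp3 at 530 and 330 CPM and Pycard at 90.5 and 198 CPM. The part of depth, nuclear RNA, immediate-early genes and the disease-associated state in the split of clusters 3, 8 and 9 was not tested, and as comparisons of clusters these are descriptions.

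**Figure D4:**
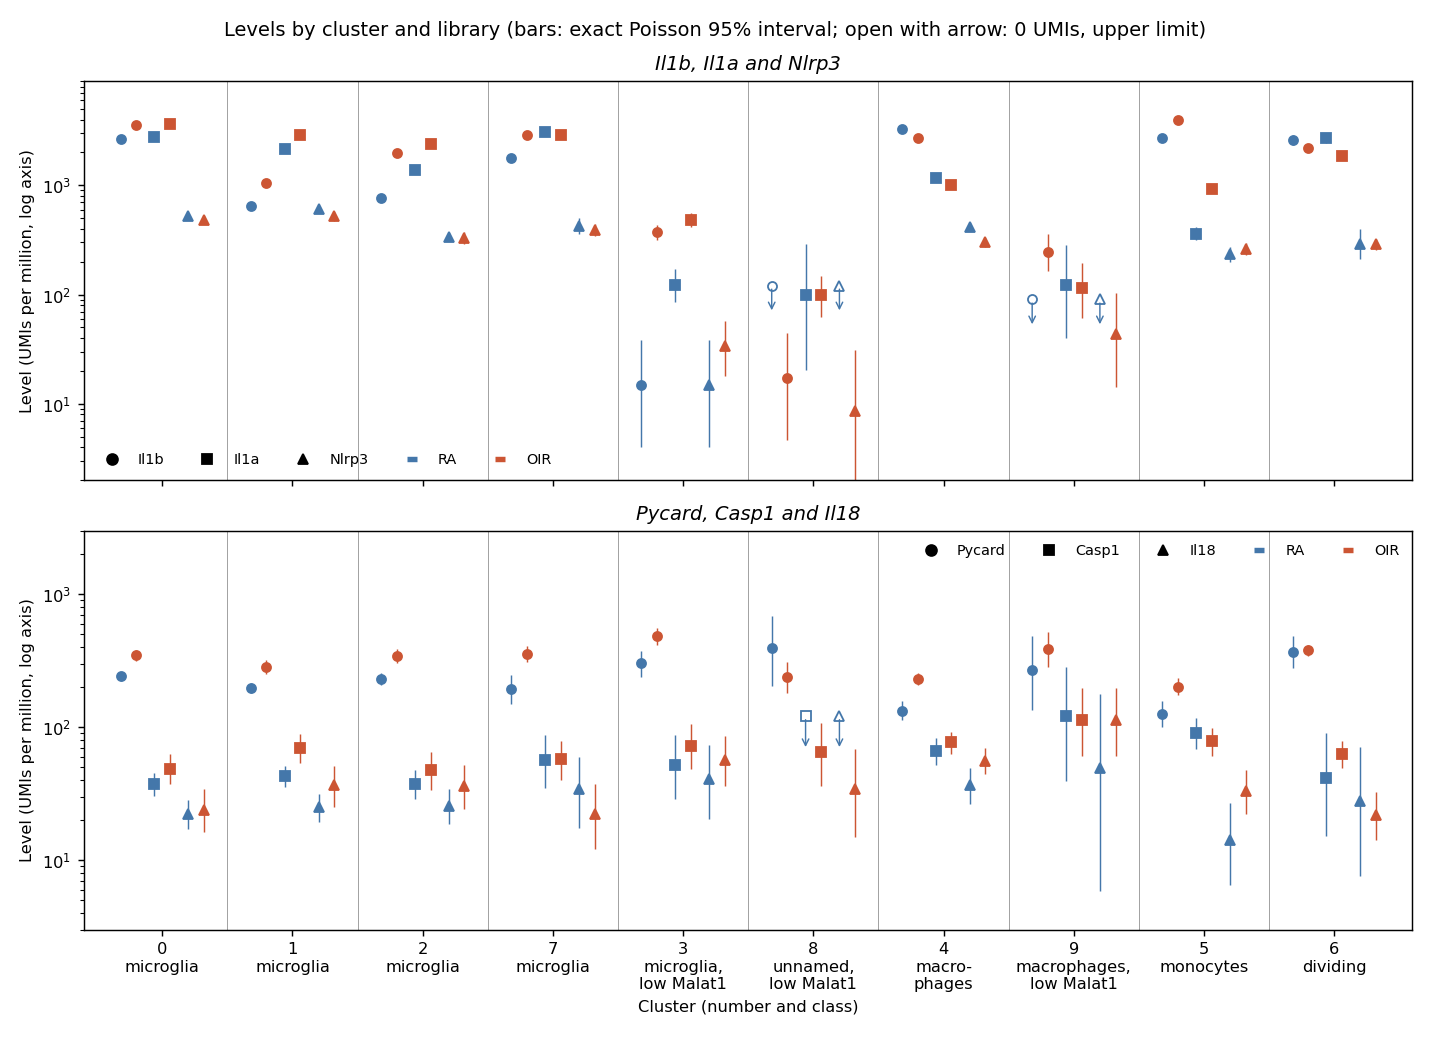
Levels (CPM, log axis) by cluster and library, with Il1b, Il1a and Nlrp3 above and Pycard, Casp1 and Il18 below. Bars are exact Poisson 95% intervals and open symbols with arrows are upper limits at 0 UMIs; in clusters 3, 8 and 9 Il1b falls to 371 CPM or less and Nlrp3 to 44.0 CPM or less, where UMIs were counted, while Pycard stays at 237 CPM or more.

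Across the 18 parts made by splitting clusters by library (20 cells or more, vessel cells left out), the same grouping showed in part in the correlations of log2(CPM + 10), which are given without a test because the points share 2 libraries and differ in depth. Pearson's r was 0.90 between Il1a and Nlrp3, 0.85 between Il1b and Nlrp3, 0.77 between Il1b and Il1a and 0.79 between Il1b and Il1rn. It was 0.70 between Il18 and Casp1, 0.62 between Il18 and Pycard and only 0.30 between Casp1 and Pycard. Between Il1b and Pycard it was -0.21, and between Il1b and Casp1 -0.05. With Malat1 itself, r was 0.86 for Nlrp3, 0.72 for Il1a, 0.67 for Il1b and -0.55 for Pycard.

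Of 5459 genes with 50 CPM or more in some part, those most like Il1b were Nr4a1, an immediate-early gene (0.95), Dusp2 (0.93) and Coq10b (0.93). Those most like Il1a were Socs3 (0.97), Tnf (0.96) and Nfkbia (0.95), and those most like Nlrp3 were Mcl1 (0.99), Csrnp1 (0.98) and the nuclear RNA Neat1 (0.98). Il1rn was followed by Gna13 (0.90), Lilrb4a (0.89) and Ccrl2 (0.87). Pycard had Ccdc22, Ywhah and Ppp1r14b (each 0.93), Casp1 had Phf11b (0.93), Sh3bgrl (0.91) and Psmb8 (0.91), and Il18 had Use1 (0.94), Ptgr2 (0.92) and Clta (0.92).

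Over all microglia, with cluster 3 included, cells with Il1b more often held Il1a and Nlrp3. At 2000 UMIs per cell, 92.1% (88.7 to 94.7) of RA microglia with an Il1b UMI also had Il1a, against 73.3% (68.8 to 77.5) of those without, and in OIR 92.6% against 71.4%. For Nlrp3 it was 56.9% against 44.8% in RA and 53.3% against 38.2% in OIR. For Il1rn it was 4.40% against 1.67% in RA and 12.8% against 5.53% in OIR, with overlapping intervals in both. For Pycard it was 34.9% against 36.7% in RA and 44.2% against 52.5% in OIR, and for Casp1 6.74% against 10.2% and 10.3% against 12.4%, with overlapping intervals. All 3 inflammasome transcripts, Nlrp3, Pycard and Casp1, were found together in 12 of 761 RA microglia, 1.58% (0.817 to 2.74), and 10 of 459 OIR microglia, 2.18% (1.05 to 3.97). At this depth Casp1 alone was found in 8.67% of RA and 11.3% of OIR microglia, so the joint share could not exceed these values. Cells of 1 library are not replicates, so these shares describe the 2 libraries. They also pool clusters. In cluster 3 at this depth, 2.17% of RA and 20.3% of OIR cells carried Il1b and 2.17% and 5.06% carried Nlrp3. Pycard was carried by 58.7% and 60.8% of them. The part of cluster 3 in the shares above was not tested, so they are not read as co-expression within a cluster.

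Of 47 other pathway genes listed, 14 reached 50 CPM in microglia of 1 library and none of them was 2-fold apart between conditions, beside 5.20% of all genes higher and 6.16% lower in OIR. By rule only genes 2-fold apart in microglia were to be named, so the genes named here were chosen after their values were seen. None of the 9 receptor genes and none of the 6 other family members reached 50 CPM in microglia. Il1r1, the signalling receptor, was at 1.38 CPM in RA and 1.76 CPM in OIR, and Il33 had 0 and 2 UMIs. In the signalling list 7 of 13 genes were compared, with a median log2 ratio of -0.45. In the list of other sensors and triggers 3 of 14 were compared, with a median of -0.62, and in that of other caspases and pores 4 of 5, with a median of 0.07, beside 0.05 for all genes.

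In macrophages 15 of the 47 were compared and none was 2-fold apart, beside 8.09% of all genes higher and 6.54% lower. In monocytes 17 were compared, of which 1 was higher, beside 6.55% of all genes, and 1 lower, beside 7.61%. Il1r2, the decoy receptor, was lower in OIR there, at 93.2 CPM in RA and 27.6 CPM in OIR, a log2 ratio of -1.76 (-2.49 to -1.06). In the same class the neutrophil list was at 1887 and 438 CPM and the monocyte list at 6023 and 3745 CPM, and their part in this difference was not tested. Ninj1, which ruptures the membrane of dying cells, was higher, at 91.6 and 249 CPM, a log2 ratio of 1.44 (1.02 to 1.89). In dividing cells 14 were compared, and 1 was higher, beside 11.4% of all genes, and 0 lower, beside 11.9%. This was Ninj1, at 76.5 CPM from 11 UMIs in RA and 216 CPM in OIR, a log2 ratio of 1.5 (0.63 to 2.52). No other gene compared passed 2-fold in these classes.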

How the data were processed

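The authors deposited 1 matrix of counts per library, with UMIs per gene and droplet barcode, made with Cell Ranger 3.1.0 per the file headers. The submitters' processing notes name mm10 and Seurat 4.0. The counts are filtered for cells but not normalized.

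Cells with more than 20% mitochondrial UMIs and the 2% of cells with the most genes were removed. Both libraries were integrated and clustered in Seurat 5.3.0 (R 4.3.3) on 3000 anchor genes, less the genes reported here, with 30 dimensions, at resolution 0.5. Clusters with Ptprc in at least 10% of cells were clustered again at 0.8 and named from marker lists. Cluster numbers are those of this clustering, not the study's. Scrublet (scanpy 1.11.5) called 4 RA and 2 OIR cells, too few to have worked, so doublets were kept.

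UMIs were summed per class and library and divided by the class total. Genes with 50 CPM in 1 library were compared at 2-fold. A group at 0 was given 3 UMIs in a ratio. Each cell was thinned to 2000 UMIs, and shallower cells were left out, for shares at equal depth. Libraries held 12810892 (RA) and 9835402 (OIR) UMIs. Scripts were tested on simulated counts. The 7 genes are always named, pathway genes where 2-fold apart in microglia, and for each of the 7 genes the 3 most correlated genes. The members and lists were chosen with earlier results of these data known.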

Additional observations from a re-analysis of the deposited data

Results flagged for a closer look

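Several genes had opposite directions between conditions in different classes. With 1 library per condition none of these differences was tested. The log2 ratio of OIR over RA for Il1b was higher in microglia than in macrophages by 1.02, and the macrophage value minus the monocyte value was -0.90. For Il1a the microglial value exceeded that of macrophages by 0.63, and the macrophage value minus the monocyte value was -1.62. For Il1rn microglia exceeded macrophages by 2.48, and in macrophages 1 RA cell held 44 of the 142 RA UMIs.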

How the results depend on the processing

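No paired analysis was possible because there was 1 library per condition. Of 192 values of 12 main results under alternative settings, 158 stayed within the margin and 34 moved, and of 366 values of 23 single genes in a class 311 stayed and 55 moved. Of the same 366, 20 had the other sign. No called value was reversed. The cause of these shifts was not tested. The log2 ratio of Il1b in microglia (0.67) was 0.74 with a Ptprc limit of 25%, 0.76 without integration, 0.73 with a resolution higher by 0.4, 0.73 with all 3000 anchor genes, 0.78 with a mitochondrial limit of 10%, 0.74 in cells with at least 2000 UMIs and 0.77 without cells lacking Malat1. It was 0.59 without ribosomal and mitochondrial genes in the totals, 0.62 centred on the median, 0.61 averaged over cells and 0.75 without clusters 3 and 9. The log2 ratio of Il1rn per Il1b (1.02) was 0.63 averaged over cells and 0.70 from thinned counts. The share of RA microglia with Il1b was 36.3% at 1000 UMIs and 52.5% at 4000 UMIs. That of OIR microglia was 44.8% and 60.2% at these depths, 59.6% with the Ptprc limit of 25%, 60.1% with the mitochondrial limit of 10%, 58.4% without cells lacking Malat1 and 59.5% without clusters 3 and 9. In macrophages 1 member was 2-fold higher and 1 was 2-fold lower both averaged over cells and from thinned counts, against 0 and 0. In monocytes 0 members were higher at the higher resolution, 2 from thinned counts and 2 with no minimum CPM, against 1. In dividing cells, with 12 RA cells, 2 were higher with the Ptprc limit of 25%, 3 without integration, 2 with the mitochondrial limit of 10%, 2 without the filter on genes, 0 from thinned counts and 2 without the cell with the most UMIs of each library, against 1. Leaving out clusters 3 and 9, the cell with the most UMIs or the dividing cell with S100a8 was chosen after seeing the data.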
